A study of Mus musculus with 4 samples.

Results

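RIKEN cDNA genes are mouse loci known by a provisional symbol that ends in Rik, and they were examined here for histone H3 lysine 9 dimethylation (H3K9me2) at their promoters in the medial layer of the mouse aorta. They were taken as every row of the promoter table whose gene symbol ends in Rik, which gave 2131 of 26354 rows. The other 24223 rows comprised 3143 predicted genes with a Gm symbol, 1582 rows named after a sequenced genomic clone and 19498 rows with any other symbol.

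Rik symbols come from full-length mouse cDNAs cloned and sequenced at RIKEN and annotated by the FANTOM consortium. Such a symbol is the name of the clone, and its opening 4 characters identify the cDNA library, and with it the tissue, from which the clone was picked. The symbol is replaced once a gene has been characterised, so Rik genes include protein-coding genes of unassigned function, long noncoding RNAs and genes that now carry another name. H3K9me2 is a repressive histone mark written mainly by the methyltransferases EHMT1 and EHMT2, and it covers broad domains of silenced euchromatin. In smooth muscle, the contractile cell type of the arterial media, it is studied as a brake on genes that are silent in the resting vessel wall.

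The tissue came from aortas of untreated C57Bl/6J males, from which fat, adventitia and endothelium had been removed by hand, and the medial layer was fixed with formaldehyde without culture. Chromatin from 2 independent experiments, v102 and v134, was precipitated with an H3K9me2 antibody, and the input chromatin of the same experiment was sequenced beside it, giving 2 H3K9me2 libraries and 2 input libraries. Input chromatin was the only control, no other genotype, age or treatment was profiled in these libraries, and the number of animals behind each library is not given in the sources used here. The libraries hold DNA and no expression values, so the labelled cell type could not be checked against its marker genes. P-values measure only the spread between these 4 libraries, which may be technical.

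Each value is the number of reads within 1 kb either side of a transcription start site, a window of 2 kb. Over the table, the 2 ChIP libraries held 162233 (v102) and 229605 (v134) reads, and the 2 input libraries held 619100 and 1084349 reads. The authors removed promoters with few input reads, and the lowest summed input over Rik rows was 21 reads, the median 59 and the highest 335. The median Rik promoter had 4 ChIP reads in v102 and 6 in v134, so precision at a single promoter was low.

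The promoter sequences of 4 members show the range of base composition behind the values below: the first 2 members with a usable sequence among those with the most H3K9me2, and the first 2 among those with the strongest evidence of depletion. Sequences are those of RefSeq for GRCm38.p6, run 5′ to 3′ on the strand of the gene and cover 250 bases before to 50 after its start, and capitals mark each CG dinucleotide, the base pair step at which vertebrate DNA is methylated. 1700046C09Rik, a long intergenic noncoding RNA, lies on the minus strand with its promoter at chr11:14599176-14599475 and had 12 CG in 300 bases. C130026I21Rik, a protein-coding gene on the minus strand with its promoter at chr1:85270517-85270816, had 6.
1700046C09Rik: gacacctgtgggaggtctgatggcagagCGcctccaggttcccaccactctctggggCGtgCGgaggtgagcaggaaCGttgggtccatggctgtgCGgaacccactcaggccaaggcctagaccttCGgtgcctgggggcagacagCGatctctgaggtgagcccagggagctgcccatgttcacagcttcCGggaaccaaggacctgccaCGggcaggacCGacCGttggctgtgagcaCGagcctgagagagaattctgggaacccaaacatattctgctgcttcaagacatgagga
C130026I21Rik: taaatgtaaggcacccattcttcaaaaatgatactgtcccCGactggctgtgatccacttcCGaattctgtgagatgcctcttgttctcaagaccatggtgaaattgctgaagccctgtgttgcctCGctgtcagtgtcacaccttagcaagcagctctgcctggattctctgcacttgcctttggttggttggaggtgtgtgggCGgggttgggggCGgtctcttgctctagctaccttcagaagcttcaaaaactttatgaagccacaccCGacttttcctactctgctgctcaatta
The promoter of 4933432B09Rik, now named Fam227a, at chr15:79658907-79659206 on the minus strand had 22 CG. That of 5430405H02Rik, a noncoding processed transcript at chr2:156862896-156863195 on the minus strand, had 42 and a GC content of 73%, against 61.3%, 49.7% and 59% in the 3 others in the order shown.
4933432B09Rik: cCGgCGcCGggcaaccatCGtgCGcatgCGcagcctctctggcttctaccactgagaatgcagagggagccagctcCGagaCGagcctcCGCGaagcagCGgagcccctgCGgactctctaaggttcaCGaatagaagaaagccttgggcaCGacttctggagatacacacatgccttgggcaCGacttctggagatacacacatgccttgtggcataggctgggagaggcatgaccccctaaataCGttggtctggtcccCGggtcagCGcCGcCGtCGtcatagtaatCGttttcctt
5430405H02Rik: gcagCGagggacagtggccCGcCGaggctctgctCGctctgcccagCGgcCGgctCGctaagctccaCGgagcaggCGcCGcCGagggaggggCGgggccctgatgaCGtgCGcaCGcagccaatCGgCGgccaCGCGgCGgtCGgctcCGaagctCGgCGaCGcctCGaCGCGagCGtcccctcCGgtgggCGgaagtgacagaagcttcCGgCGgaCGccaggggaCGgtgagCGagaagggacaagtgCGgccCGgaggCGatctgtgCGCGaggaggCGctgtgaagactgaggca
For comparison, 94.6% of all 32851 promoters in the RefSeq table held at least 1 CG, with a median of 7, and the 2090 promoters whose current symbol ends in Rik had a median of 6. 1700055D18Rik, which had the strongest evidence of depletion, is not shown because the start site given by RefSeq lies over 700 bp from the one given by GENCODE. The letters describe these windows only and say nothing of whether the CGs are methylated.

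Rik promoters as a class differed little from the rest of the table. Reads at Rik promoters made up 8.08% of table reads in the v102 ChIP library (13112 reads, 95% Wilson interval 7.95 to 8.22%) and 7.70% in the v134 ChIP library (17682 reads, 7.59 to 7.81%). They made up 7.09% in the v102 input (43915 reads, 7.03 to 7.16%) and 7.58% in the v134 input (82207 reads, 7.53 to 7.63%). Both ChIP shares were thus above both input shares, but the intervals of ChIP and input overlapped in v134. The ratio of ChIP to input reads at Rik promoters was 1.15 times that of all other rows in v102 and 1.02 times in v134 (mean 1.08 ± 0.0951, SD, n = 2 experiments). The exact two-sided permutation test over the 4 libraries gave p = 0.33, the smallest value that 2 libraries against 2 allow. The direction depended on rows of the mitochondrial genome. Its 30 rows took 14.3% (v102) and 7.53% (v134) of input reads but 0.20% and 0.175% of ChIP reads, and they include no Rik symbol. Without those rows, an alternative chosen after seeing the data, the ratio was 0.977 in v102 and 0.936 in v134 (mean 0.956 ± 0.0287, SD), below 1 in both. All intervals given cover counting error alone, because the libraries carried no molecular identifiers and reads are not independent of each other.

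The level at a single promoter was expressed as the log2 ratio of its ChIP and input reads, with 1 read added to each and both scaled to the summed reads of their library. The median log2 ratio of Rik promoters was −0.01 in v102 and −0.28 in v134, and that of all other rows was −0.13 and −0.38. Averaged over the experiments, the Rik median was −0.20 against −0.33 for the other rows, a difference of 0.13 that was small beside the middle 50% of Rik promoters, which ran from −1.08 to 0.61. Among the other rows, Gm symbols had a median of 0.10, genomic clone symbols of 0.67 and the remaining symbols of −0.46. Rik promoters therefore lay between genes with an established name and the less characterised predicted loci, and the order was the same in each experiment. The difference from other rows was 0.05 once a smooth trend of the log2 ratio with GC content had been removed.

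**Figure D1:**
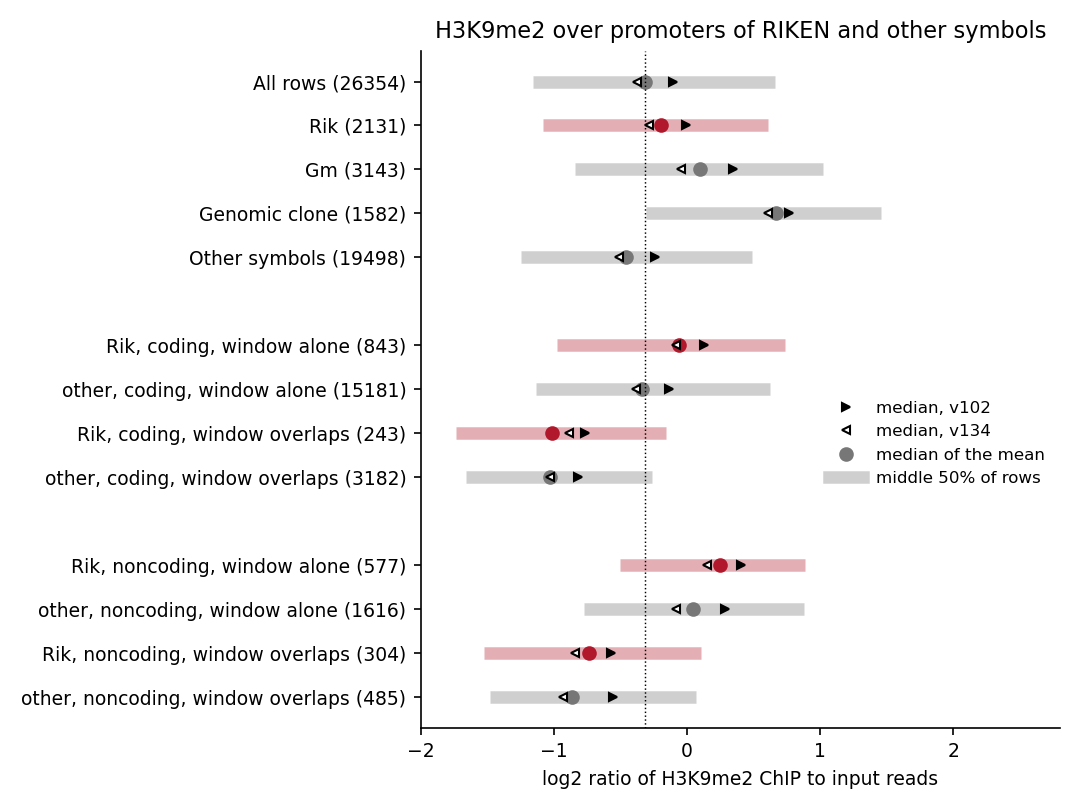
Log2 ratio of H3K9me2 ChIP to input (x axis) for all rows, symbol classes and gene types split by whether the 2 kb window overlaps that of another gene (y axis, number of rows in parentheses); circles give the median of the mean of 2 experiments, bars the middle 50% of rows, triangles the median in each experiment, red is Rik and the dotted line is the median of all rows (−0.31). Rik promoters (−0.20) sit between other symbols (−0.46) and Gm symbols (0.10), and every group with overlapping windows sits to the left of the matching group without.

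At single promoters, H3K9me2 was above input at 366 Rik promoters (17.2% of 2131) and below input at 336 (15.8%) (edgeR quasi-likelihood test, Benjamini-Hochberg adjusted p under 0.05 over all rows). Over all 26354 rows, 18.6% were above and 17% below, so neither share of Rik promoters exceeded the background. Where each input held 20 or more reads, 229 of 1211 Rik promoters (18.9%) were above, beside 17.5% of all such rows, and 122 (10.1%) were below, beside 12%, so the share above then exceeded the background slightly. Among the 366 called above, the log2 fold change ran from 0.93 to 3.05 with a median of 1.57. Among the 295 called below that had any ChIP read, it ran from −3.83 to −1.37 with a median of −2.43. In 41 Rik promoters (1.92%) no ChIP read was found in either experiment, against 1.98% of all rows. A fit that kept each ChIP library beside the input of its own experiment (a replicate block) called 294 above and 168 below, each a subset of the calls without the block, against 15.8% and 8.3% of all rows. Calls above input made up 52.1% of Rik calls, 63.6% under the block and 42.0% when library totals replaced the trimmed-mean (TMM) scaling, which lowered the median log2 fold change of all rows by 0.143. Without overlapping windows, 302 of 1576 Rik promoters were above and 206 below, beside 20.2% and 16.4% of all such rows. That setting kept rows not matched to GENCODE, whose overlap is unknown. In the fit of all rows, 12.8% of 125 unmatched Rik rows and 34.1% of 2154 unmatched other rows were above. The 20.2% is therefore not a background of windows known to stand alone. DESeq2 called 201 above and 0 below, with 196 below at an unadjusted p under 0.05, beside 11.6% and 0.102% of all rows, and gave no adjusted p for 1394 of the 2131.

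The experiments ranked Rik promoters alike in broad outline. Across the 2131 promoters, Spearman's rho between the log2 ratios of the experiments was 0.67, against 0.69 over all rows. This is a description across promoters, which share libraries, depth and base composition and are not independent. In both experiments 333 Rik promoters (15.6%) were in the top quartile of the table, against 17.8% of all rows. Of the authors' ratio of summed reads, 512 Rik promoters (24.0%) reached the 75th percentile of the table, a ratio of 0.343, where the median of the table was 0.162.

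**Figure D2:**
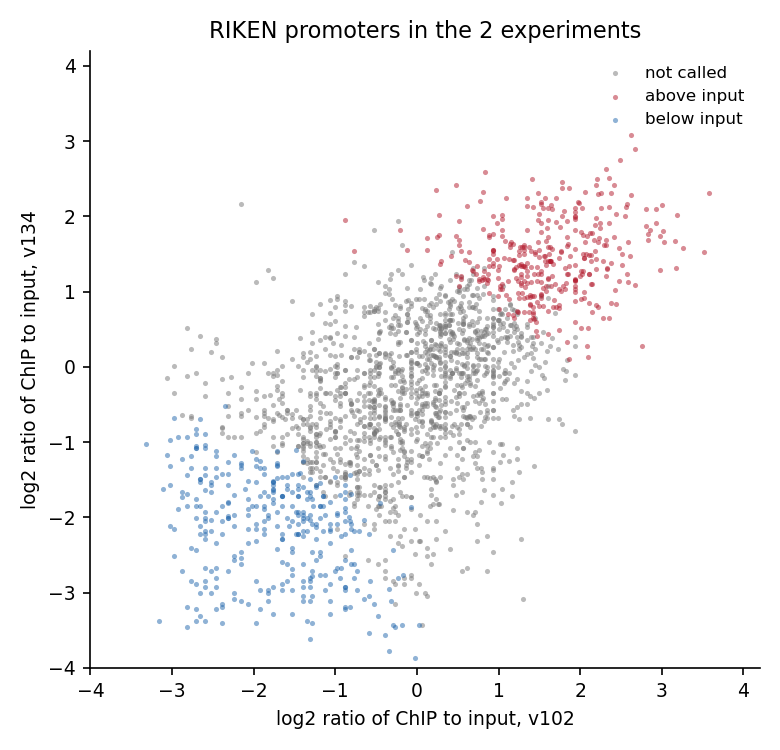
Log2 ratio of H3K9me2 ChIP to input reads in experiment v102 (x axis) and v134 (y axis), 1 point for each of 2131 Rik promoters, red for the 366 called above input, blue for the 336 called below and grey for the rest. Called promoters lie at the upper right and lower left ends of a broad diagonal cloud, and discrete lines in the lower left come from promoters with 0 or few ChIP reads.

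The source of the cDNA clone separated Rik promoters more than the class did from the rest. The 843 promoters of testis clone series had a median log2 ratio of 0.40 in v102 and 0.14 in v134, while the 163 of embryo series had −0.57 and −0.69. The 251 promoters of series from other adult organs had −0.29 and −0.67, and the 874 of series to which no tissue was assigned had −0.18 and −0.48. Testis series thus had the highest median in each experiment, and embryo series the lowest. In reads, testis series held 51.2% of Rik reads in the v102 ChIP library (6715 reads, Wilson interval 50.4 to 52.1%) and 49.9% in the v134 ChIP library (8817 reads, 49.1 to 50.6%). They held 39.0% in the v102 input (17145 reads, 38.6 to 39.5%) and 39.4% in the v134 input (32368 reads, 39.0 to 39.7%). The ChIP and input libraries did not overlap in this share, and the 2 inputs differed by less than 1 percentage point. The ratio of ChIP to input reads in testis series was 1.64 times that of all other Rik promoters in v102 and 1.53 times in v134 (mean 1.59 ± 0.0761, SD, n = 2), with an exact permutation p of 0.33, again the smallest possible.

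Embryo series took the opposite side of the libraries. They held 5.13% and 6.16% of Rik reads in the ChIP libraries and 7.83% and 7.97% in the inputs, and their ratio was 0.637 and 0.758 times that of all other Rik promoters. Other adult organs held 9.33% and 9.24% in ChIP against 11.9% and 11.7% in input, a ratio of 0.758 and 0.767. The series without an assigned tissue held 34.3% and 34.7% in ChIP against 41.2% and 40.9% in input, a ratio of 0.747 and 0.768. In all 3 tissue classes, and in the unassigned series, the 2 ChIP libraries lay on one side of the 2 inputs, and each exact permutation p was 0.33. Each comparison outside the testis series counts the testis series among the other Rik promoters. The ratios below 1 are therefore not independent of the testis ratio.

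Of the testis series promoters, 230 (27.3%) were called above input and 85 (10.1%) below, beside 18.6% and 17% of all rows. The direction was turned in embryo series, with 15 (9.20%) above and 41 (25.2%) below, and in the other adult organs, with 22 (8.76%) above and 46 (18.3%) below. Testis series made up 39.6% of all Rik promoters, 62.8% of those above input and 25.3% of those below. These are the clone series 1700, 4921, 4922 and 4930 to 4933, assigned to tissues from knowledge of the FANTOM libraries and not from the files.

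Single clone series repeated the split. Of 133 series among the Rik symbols, 12 had at least 30 promoters, 1151 in all. The 4 testis series among them, 4930, 4921, 4933 and 1700, had the 4 highest medians, 0.39, 0.36, 0.12 and 0.10. Series 4930, the second largest with 322 promoters, had 31.7% above input and 31 promoters below, and series 1700, the largest with 330, had 22.1% above and 36 promoters below. The embryo series 2810 was lowest at −0.90, with 3 of 41 promoters above input and 13 below, followed by pancreas series 1810 (−0.69), embryo series 1110 (−0.68) and 2610 (−0.67), and kidney series 0610 (−0.66). In series 0610 no promoter of 33 was called above input and 9 were below. Among the other series, 2310 from tongue had −0.53, 2410 −0.51 and 2010 from small intestine −0.27. Series 1810, 1110, 2610 and 0610 were not told apart, since their medians ran from −0.59 to −0.53 in v102 and from −0.80 to −0.57 in v134 in another order.

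**Figure D3:**
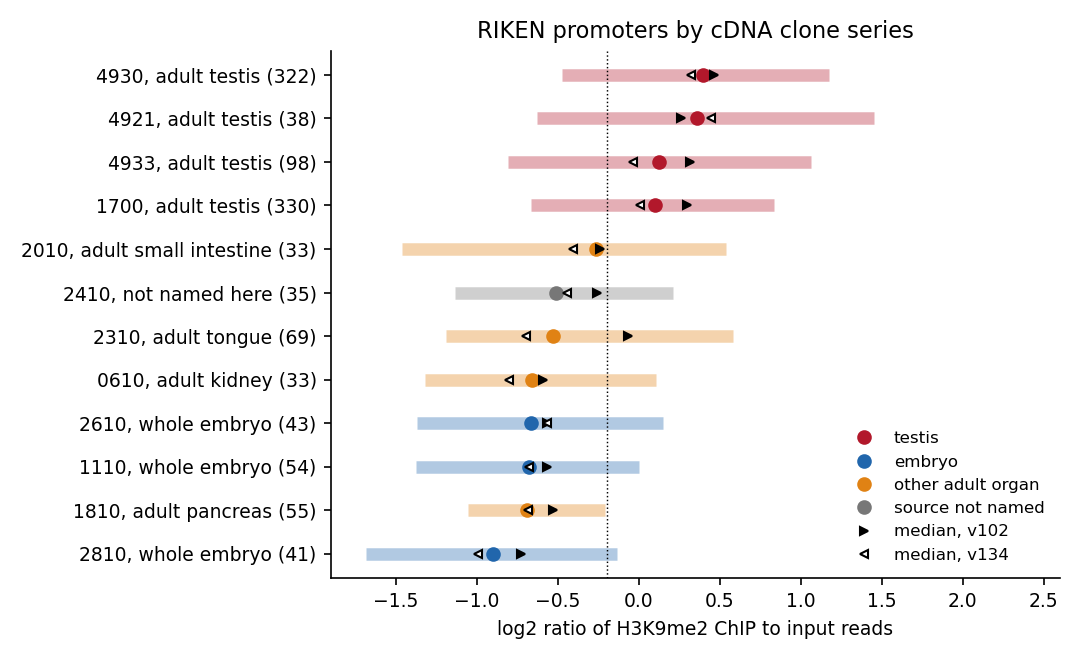
Log2 ratio of H3K9me2 ChIP to input reads (x axis) for the 12 cDNA clone series with at least 30 promoters (y axis, tissue of the library and number of promoters), with circles for the median of the mean of 2 experiments, bars for the middle 50% and triangles for each experiment's median; the dotted line is the median of all Rik promoters (−0.20). The 4 testis series (0.10 to 0.39) lie to the right of the line and every other series (−0.90 to −0.27) to its left.

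Testis series held 395 long noncoding genes among 843 promoters, against 486 among the 1288 other Rik promoters, and their median GC content was 47.7% against 49.7% for all Rik promoters. The difference between testis series and the other Rik promoters was therefore taken within subsets. The median log2 ratio was 0.68 higher in testis series over all Rik promoters, by 0.67 in each experiment. It was 0.70 higher among protein-coding genes (385 against 701), 0.64 among long noncoding genes (395 against 486), 0.61 among windows that overlap no other (606 against 845) and 0.60 among windows that do (199 against 356). It was 0.67 among symbols still in use, 0.61 among genes since renamed and 0.65 where each input held 20 or more reads. Within bins of GC content the difference was 0.48 up to 40% GC, 0.41 from 40 to 45%, 0.45 from 45 to 50% and 0.47 from 50 to 55%. Up to 40% GC, with 67 testis promoters against 53, it rested on v102, since the experiments gave 0.49 and 0.02. The difference was smaller above 55%, 0.24 from 55 to 60% and 0.10 over 60%, where 33 testis promoters remained and the experiments gave −0.06 and 0.76. After the trend with GC content had been removed, the 4 large testis series had medians of 0.16 to 0.35 and the 3 embryo series of −0.36 to −0.17. The low embryo level then rested largely on v102: over all embryo series the median was −0.42 in v102 and −0.02 in v134, and series 1110 had −0.48 and 0.15. Testis series kept 0.31 and 0.28. These subset values describe promoters and carry no test.

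The log2 ratio of Rik promoters followed base composition as it did elsewhere in the table. Of the 2131 promoters, 2006 (94.1%) could be matched to GENCODE, 1290 by their symbol and 716 through an older symbol, and a match does not establish that the same start site was counted. Across these 2006, Spearman's rho of the log2 ratio was −0.52 with GC content, −0.50 with the observed over expected number of CG dinucleotides and 0.24 with the share of the window in repeats, and rho with GC content was −0.54 over other rows. The median log2 ratio of Rik promoters went from 1.11 at up to 40% GC (120 promoters) to 0.15 at 45 to 50% (611) and −1.15 over 60% (136). Other rows in the same bins had medians of 1.40, −0.05 and −1.26. In the lowest bin 72 of the 120 Rik promoters (60%) were above input, beside 64.2% of other rows, and in the highest 1.47% beside 1.85%. Library preparation, alignment and precipitation can each depend on base composition, and their part in this relation was not tested.

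**Figure D4:**
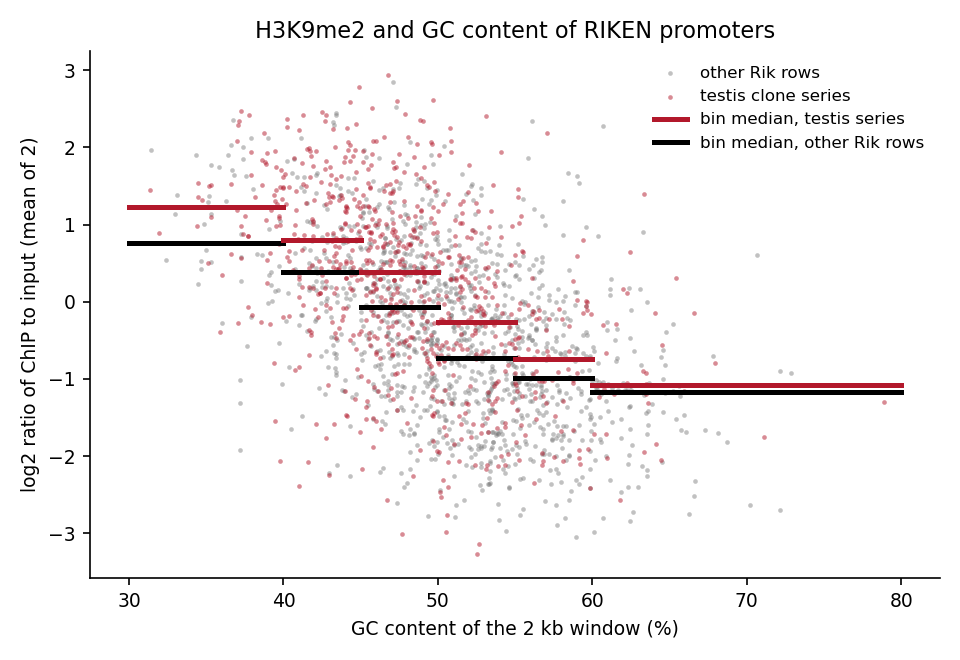
Mean log2 ratio of H3K9me2 ChIP to input reads (y axis) against GC content of the 2 kb window in percent (x axis), 1 point for each of 2006 matched Rik promoters, red for testis clone series and grey for the rest; horizontal lines give the median of each group within 6 bins of GC content. Both groups decline with GC content, and the red line lies above the black one in each bin, by 0.48 in the lowest and 0.10 in the highest. The lowest bin gave 0.49 in v102 and 0.02 in v134, and the highest −0.06 and 0.76.

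The level differed by gene type and by how closely promoters lay together. The 1086 Rik genes annotated as protein-coding had a median log2 ratio of −0.26, against −0.47 for 18363 other protein-coding genes. The 881 long noncoding Rik genes had −0.10, against −0.14 for 2101 others, so Rik and other symbols differed by 0.22 among coding genes and by 0.039 among noncoding ones. With the GC trend removed, this order turned: the medians were −0.01 for coding Rik genes and 0.00 for other coding genes, but 0.11 for noncoding Rik genes and −0.04 for other noncoding genes. Among noncoding Rik genes, the 324 long intergenic ones had 0.61 in v102 and 0.28 in v134, with 91 above input (28.1%) and 22 below (6.79%). The 701 long intergenic genes under other symbols were close to this, with 0.52 and 0.20, 28.4% above and 8.56% below. The 350 antisense Rik RNAs, transcribed from the strand opposite another gene, had −0.07 and −0.23, and the 185 processed Rik transcripts had −0.53 and −0.76. The 13 noncoding Rik genes annotated to share a bidirectional promoter had −0.65 and −0.98, with 4 below input. The 22 such genes under other symbols had −0.70 and −0.90, also with 4 below.

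Windows of 555 matched Rik promoters (27.7%) overlapped that of another matched row, against 18.6% of other matched rows, and such windows share reads. Genes that are unmatched or absent from the table were not considered. The nearest other start was that of a protein-coding gene in 493 of the 555 (88.8%), at a median distance of 242 bp over all 555, and 48 of the pairs joined 2 Rik genes. Overlapping windows had the lower level in every class: −1.02 for 243 protein-coding Rik genes against −0.06 for the 843 whose window stood alone, and −0.74 for 304 noncoding Rik genes against 0.24 for 577 alone. Of the 304, 275 lay next to a protein-coding gene, so their counts cannot be told apart from those of that neighbour. Where the window stood alone, other coding genes had −0.34 and other noncoding genes 0.04, both lower than the Rik genes. With the GC trend removed, the coding medians of the averaged values were 0.06 for Rik and 0.07 for other symbols, although the single experiments gave 0.17 and 0.15 for Rik against 0.07 and 0.09. The noncoding medians were 0.18 and −0.01. The overlapping share was 10.3% among Rik promoters above input and 52.8% among those below, whose median GC content was 44.9% and 54.1%.

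Rik genes that have since been named had a lower median log2 ratio than those that keep the clone symbol. In the RefSeq table, 1001 symbols are current, 831 have been replaced and 299 are neither. The median log2 ratio was −0.04 for current symbols (0.10 in v102 and −0.08 in v134) and −0.41 for replaced ones (−0.24 and −0.53). Among protein-coding genes alone it was 0.01 for 390 current symbols and −0.45 for 664 replaced ones, beside −0.47 for coding genes under other symbols. Within testis series, the coding genes had 0.29 for 176 current and −0.04 for 201 replaced symbols. That gap came from v134 (0.31 and −0.04) and was nearly absent in v102 (0.37 and 0.35). Coding medians for current and replaced symbols were −0.50 and −0.73 in embryo series and −0.26 and −0.57 in unassigned series. The embryo gap also came from v134 (−0.53 and −0.80), since both medians were −0.57 in v102. In other adult organs the order turned, with −0.69 and −0.63. It turned in v102 (−0.53 and −0.39) and not in v134 (−0.42 and −0.70). On the X chromosome, which male cells carry as a single copy, the 70 Rik promoters had a median summed input of 30 reads and a median log2 ratio of 0.56. Of the 70, 25 were above input (35.7%) and 3 below, with a median GC content of 44.0%. The 710 other X rows had −0.08 and 13.1% above, with a median GC content of 47.7%. With the GC trend removed, the X medians were 0.15 for Rik and 0.03 for other rows (0.05 and −0.02 in v102, 0.29 and 0.09 in v134).

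The 8 Rik promoters with the highest log2 ratio among those called above input included 6 of testis series and 5 long intergenic noncoding RNAs. 1700046C09Rik, a noncoding gene at chr11:14560355-14599225 (GRCm38), had 49 and 45 ChIP reads in v102 and v134 beside 15 and 43 input reads. Its ratio of summed reads was 1.62 (interval 1.17 to 2.24), where the median of the table was 0.162, and its log2 fold change 3.02 ± 0.34 (SE, edgeR adjusted p = 9.77e-16). 1700092E19Rik, noncoding at chr13:26283150-26312406, had 24 and 54 ChIP reads beside 14 and 34 input reads (log2 fold change 2.95 ± 0.35). In both genes the ChIP library held more reads than the input of its experiment, although each input library held more reads over the table.

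The next 4 members had more ChIP than input reads in v102, and 1 of them also in v134. 4930401O10Rik, at chr11:71928471-71940122, had 27 and 33 ChIP reads beside 18 and 23 input reads. 4930584F24Rik, at chr5:26460070-26493314, had 42 and 35 beside 17 and 41. 1700120G11Rik, at chr4:14219496-14237450, had 39 and 32 beside 18 and 34. These 3 are intergenic noncoding RNAs. The nearest start of another matched row of the table lies 97387 to 242257 bp away. 4930474N05Rik, annotated as protein-coding at chr14:36094917-36100114, had 21 and 18 ChIP reads beside 10 and 20 input reads. All 6 kept an adjusted p of at most 0.000542 (edgeR or DESeq2) under every alternative fit in which they were tested. The fit with a minimum of 20 reads in each input held none of the 8 highest, because each had fewer in v102. Their median summed input was 44.5 reads, against 59 over all Rik promoters.

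Both remaining members lie in one region of chromosome 1 and are uncertain. C130026I21Rik (chr1:84992690-85270566) had 20 and 24 ChIP reads beside 12 and 13 input reads, a ratio of 1.76. A530032D15Rik (chr1:85083069-85109853) had 11 and 13 ChIP reads beside 3 and 22 input reads, so its v102 value rests on 3 input reads. Each window has 2 near-identical copies elsewhere in the genome, so reads could be split between copies by the alignment. Among all Rik genes, 10 had such a copy.

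The 8 Rik promoters with the smallest adjusted p below input held no ChIP read in either experiment, and 6 of them are protein-coding. 1700055D18Rik, an antisense RNA at chr4:45011687-45015406 whose start lies 725 bp from that of Zbtb5, had 0 and 0 ChIP reads beside 33 and 48 input reads. At a floor of 3 ChIP reads over both libraries its ratio was at least 4.38-fold lower than the median ratio of the table (edgeR adjusted p = 2.16e-05). 4933432B09Rik, now Fam227a (chr15:79609576-79658956), had 0 and 0 beside 26 and 51, with the start of Cby1 243 bp away. The depletion was thus seen in windows that also hold another gene's promoter.

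The start sites of 5430405H02Rik (chr2:156844351-156862963) and 1110008F13Rik, now Rab5if (chr2:156863128-156873563), lie 165 bp apart, so their 24 and 48 and their 23 and 46 input reads are largely the same reads and count as 1 region. 1700052N19Rik, now Armt1 (chr10:4432467-4455141), had 22 and 48 input reads, and Rmnd1 starts 79 bp away. 1190005F20Rik, now Trmt1l (chr1:151428542-151458161), had 24 and 43 input reads, and another Rik gene, 1200016B10Rik, starts 87 bp away. 2810408A11Rik (chr11:69897352-69900987) had 19 and 49 input reads, and Neurl4 starts 85 bp away. Of the 8, the window of 1700019E19Rik alone overlapped no other matched window. This gene, now Ift43 (chr12:86082541-86162459), encodes a subunit of the intraflagellar transport complex A that moves cargo in cilia, and had 26 and 42 input reads. Relative to the median ratio these members were at least 3.62-fold to 4.16-fold lower.

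The 3 Rik promoters with the most input reads, where input counting error is relatively smallest, all lay above the median log2 ratio of the table, and 2 were called above input. 4931408C20Rik, protein-coding at chr1:26681814-26687460, had 139 and 170 ChIP reads beside 117 and 218 input reads, a ratio of 0.922 (0.790 to 1.08) and a log2 fold change of 2.16 ± 0.40 (edgeR adjusted p = 1.26e-06). Its window had 0.0213 of the CG dinucleotides its base composition predicts. Its summed input of 335 reads was far above the Rik median of 59, and the cause of this excess was not tested. 3222401L13Rik, noncoding on chromosome 18, had 39 and 36 ChIP reads beside 43 and 82 input reads (log2 fold change 1.55 ± 0.33, adjusted p = 3.19e-05). 5730435O14Rik, noncoding at chr10:41568016-41576476, had 11 and 16 ChIP reads beside 35 and 95 input reads and did not differ from input by the test (adjusted p = 0.938). The first of these had more ChIP than input reads in v102 and fewer in v134.

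**Figure D5:**
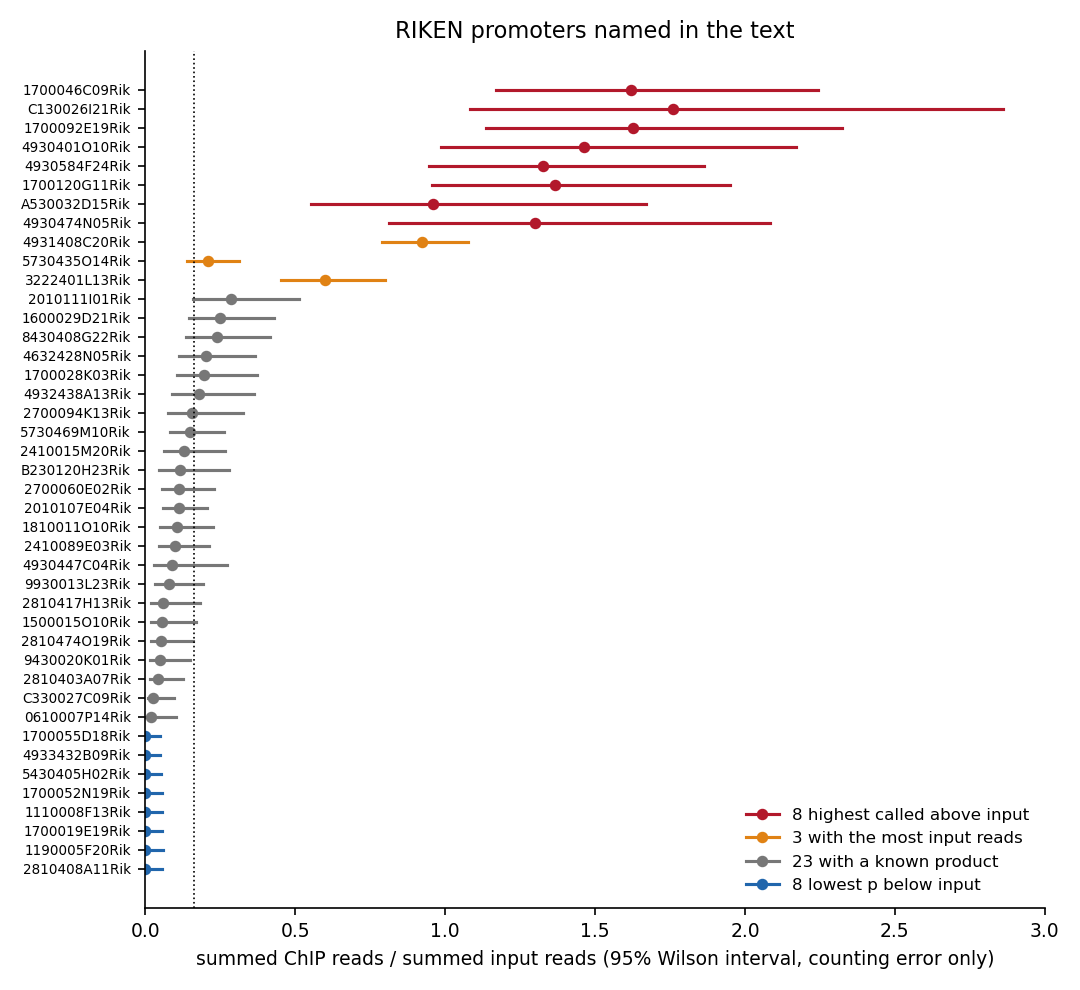
Summed ChIP reads over summed input reads (x axis, linear, not scaled for library size) for the 42 Rik promoters named by rule (y axis), with 95% Wilson intervals that cover counting error only; the dotted line is the median ratio of the table (0.162). The 8 highest lie between 0.96 and 1.76, the 23 with a known product between 0.0175 and 0.286, and the 8 lowest at 0.

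Some Rik symbols belong to genes whose protein is well characterised, and 23 of these were listed by role. None of the 23 was called above input and 5 were called below, beside 18.6% and 17% of all rows, so the count below was near the background. Their median log2 ratio was −1.03, against −0.45 for the 664 protein-coding Rik genes since renamed and −0.20 for all Rik promoters. Chromatin and cell division had 4 members with a median of −1.28. 2810474O19Rik, which encodes RESF1, a retroelement silencing factor and partner of the H3K9 methyltransferase SETDB1, had 1 and 2 ChIP reads beside 18 and 39 input reads (edgeR adjusted p = 0.0451, 0.0991 with the replicate block and 0.0804 on autosomes alone). C330027C09Rik, which encodes the protein phosphatase 2A inhibitor CIP2A, had 1 and 1 beside 23 and 56 (log2 fold change −2.96 ± 0.82, adjusted p = 0.00211), and its start lies 20 bp from that of Dzip3. 2810417H13Rik, encoding the PCNA-binding protein PCLAF, had 1 and 2 beside 13 and 37, and 2700094K13Rik, encoding selenoprotein H, 1 and 7 beside 14 and 37. Neither of the last pair passed the test (adjusted p = 0.0828 and 0.640).

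Products of the vessel, matrix and immune system had 6 members with a median of −0.61. 9430020K01Rik, on chromosome 18, encodes JCAD, a junction protein of endothelial cells, and had 0 and 3 ChIP reads beside 16 and 45 input reads (edgeR adjusted p = 0.0333, 0.0927 with the block and 0.0616 on autosomes alone). 1500015O10Rik, which encodes the secreted precursor augurin (ECRG4), had 1 and 2 beside 24 and 30 and lay at the threshold (adjusted p = 0.0528, 0.0326 with library totals and 0.0397 without overlapping windows). 9930013L23Rik, encoding the hyaluronan-binding protein CEMIP, had 1 and 4 beside 27 and 36 (adjusted p = 0.0905). The other three lay near the middle of the table: 4632428N05Rik, encoding the leukocyte checkpoint receptor VISTA, had 7 and 6 ChIP reads beside 19 and 45, 1600029D21Rik, encoding the epithelial surface protein PLET1, 9 and 7 beside 25 and 39, and 8430408G22Rik, encoding DEPP1, 11 and 4 beside 25 and 38. Their adjusted p-values ran from 0.691 to 0.988.

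Signaling and metabolism had 5 members with a median of −0.82. 0610007P14Rik, which encodes ERG28 of sterol synthesis, had 0 and 1 ChIP reads beside 24 and 33 input reads (edgeR adjusted p = 0.00524), with the start of Ttll5 109 bp away. 2010111I01Rik, which encodes aminopeptidase O, had the highest level of the 23, 3 and 11 beside 11 and 38 (adjusted p = 0.494). B230120H23Rik, encoding the stress-responsive kinase ZAK, had 0 and 5 beside 19 and 25, so the experiments differed. The redox protein gene 5730469M10Rik (PRXL2A) and the Wnt regulator gene 1810011O10Rik (TCIM) had ratios of 0.148 and 0.106 and did not pass the test.

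Mitochondrial and housekeeping products had 6 members with a median of −0.91. 2810403A07Rik, which encodes the splicing protein KHDC4, had 0 and 3 ChIP reads beside 22 and 50 input reads (edgeR adjusted p = 0.0119). The other 5, among them the small ATP synthase subunit 2010107E04Rik with 2 and 9 beside 39 and 60 and the contact site subunit 2410015M20Rik (MICOS13) with 2 and 6 beside 18 and 44, had ratios of 0.0986 to 0.18 and did not pass the test. The meiotic genes 4930447C04Rik (SIX6OS1) and 1700028K03Rik (SPO16) are both of testis series. The former had 3 and 0 ChIP reads beside 12 and 22 input reads and the latter 9 and 2 beside 16 and 40, so both were higher in v102 than in v134 and neither passed the test (adjusted p = 0.268 and 0.951).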

How the data were processed

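The data were reads of H3K9me2 ChIP and input libraries of mouse aortic media, with 2 libraries of each. Per the labels and the study's methods, the authors trimmed reads (Trim Galore 0.4.2, cutadapt 1.9.1), aligned them to GRCm38 with Bowtie2 2.2.7 and counted them within 1 kb of transcription start sites with SeqMonk. The annotation release and handling of duplicates are not given in the sources used here. They deposited raw counts per promoter for each library, their sums, and a ratio (ChIP sum divided by input sum) that is not scaled for library size. The deposited table has been filtered on summed input, with 21 reads as its lowest value; a minimum of 20 in each input was tried as an alternative.

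Groups followed the labels. ChIP was compared with input with edgeR 4.0.16 (R 4.3.3; TMM, quasi-likelihood, Benjamini-Hochberg over all 26354 rows, threshold 0.05) after the test was run on simulated data. With 50 simulated rows for each change, it called 92% of 4-fold gains and 12% of 2-fold gains. It called 8% of 4-fold losses and 0% of 2-fold losses, so losses were found less readily than gains there. The simulation changed 200 of 26354 rows, a far smaller share than was called in the data. Its rates therefore need not hold for the data. Standard errors were the log2 fold change divided by the square root of F. DESeq2 1.42.0, other scalings, filters, subsets of chromosomes and windows, and a replicate block were alternatives. The labels pair each ChIP library with the input of its experiment, and their deviations between the experiments correlated at 0.10. Log2 ratios used a pseudocount of 1 read. Intervals are 95% Wilson intervals, and the floor for 0 reads was 3. Counts below about 5 reads give wide intervals, so single promoters are imprecise. GC content, CG content, repeats and overlaps came from GRCm38 with GENCODE, to which 24075 rows (91.4%) matched. Overlaps and nearest starts were taken among these matched rows only, not among all annotated genes. Near-identical windows were found with minimap2 2.31-r1302 (at least 1000 aligned identical bases at 95% identity).

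Members named were the 8 Rik promoters with the highest log2 ratio called above input, the 8 with the smallest adjusted p below input (ties by more input), the 3 with the most input, 23 with a known product, and clone series of at least 30 promoters. The members, lists and rules were chosen with earlier results of these data known.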

Additional observations from a re-analysis of the deposited data

How the results depend on the processing

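Counts depended on scaling, filters and pairing. Against 366 Rik promoters above input and 336 below, DESeq2 gave 201 and 0 (all rows 11.6% and 0.102%), a minimum of 20 reads in each input left 1211 Rik promoters with 229 and 122 (18.9% and 10.1%, all rows 17.5% and 12%), and the paired fit with a replicate block gave 294 and 168 (all rows 15.8% and 8.3%). Autosomes gave 363 and 223 of 1936 (18.8% and 11.5%, all rows 19.3% and 12.6%) and windows without overlap 302 and 206 of 1576 (19.2% and 13.1%, all rows 20.2% and 16.4%). The autosome setting kept only rows matched to an autosome, so it also left out mitochondrial and unmatched rows. The setting without overlap kept unmatched rows, whose overlap is unknown. DESeq2 size factors in edgeR gave 374 and 325 (17.6% and 15.3%, all rows 19% and 16.2%), and no further minimum gave the counts of the full table. The named members 2810474O19Rik and 9430020K01Rik lost their call under the block and on autosomes, and the block changed no other call among the 42 named members.

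The difference in median log2 ratio between Rik and other rows, 0.13, was 0.10 to 0.12 with 1 experiment left out, 0.21 with 20 reads in each input, 0.19 on autosomes, 0.22 without overlapping windows, 0.057 with a pseudocount of 5 reads, 0.049 without the GC trend, 0.22 for protein-coding and 0.039 for long noncoding genes, and kept its sign in all of these. The pooled ratio, 1.08, was 1.02 to 1.15 with 1 experiment left out, 1.22 with 20 reads in each input and 1.01 without overlapping windows, but 0.993 on autosomes and 0.956 without mitochondrial rows, where its direction turned. Both of these settings leave out the mitochondrial rows, so they are not separate alternatives. The share in the top quartile of both experiments, 15.6%, was 18.5% with 20 reads in each input (all rows 16.8%), 16.7% on autosomes, 15.9% without overlapping windows, 15.0% with 5 reads added and 14.5% without the GC trend (all rows 13.95%), and 24.2 to 24.4% where only 1 experiment set the quartile. Except where a value shows it, the cause was not tested. The edgeR fit was not run without a replicate, which would leave 1 library in each arm of that experiment. ChIP depth, with a median of 4 to 6 reads, limits what can be called below input.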
